A study of Mus musculus with 12 samples.

Results

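Transcripts of the chemokine system were followed in 12 RNA-seq libraries of male C57BL/6J mice, 4 libraries each from liver, from gastrocnemius and from gonadal white adipose tissue (WAT). All mice carried a glucocorticoid receptor gene (*Nr3c1*) with a floxed exon, written GRff in the sample titles and GRfl/fl here. GRmKO (GR-mKO) mice additionally carried a Cre transgene under the skeletal actin promoter, which is active in myofibres from development on. From 8 weeks of age both genotypes received drinking water holding 1% ethanol, either alone (vehicle) or with 100 µg/mL of corticosterone (CORT), for 4 weeks. Every library was made from 1 RNA pool of 3 mice, so each of the 12 groups had 1 library and no replicate.

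Chemokines are small secreted proteins that bind heptahelical receptors on leukocytes and direct their movement into and within tissues. CC and CXC ligands are named for the spacing of their first cysteines, and each receptor answers a limited set of ligands, so that one group recruits monocytes, another neutrophils, another T or B lymphocytes. Glucocorticoids are known to lower the transcription of many inflammatory chemokine genes, and adipose tissue macrophages are a well known source and target of chemokines in obesity.

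The genes were taken by symbol, as those named Ccl, Cxcl, Ccr or Cxcr with a number and at most 1 letter, and were kept where at least 1 of the 12 libraries reached 1 CPM (the expected count divided by the library total, scaled to 1000000 counts). This gave 34 of 22276 genes, 27 ligands and 7 receptors, while 17 further symbols stayed below 1 CPM in all 12 libraries. The lowest members by their highest CPM in any library were *Cxcl11* at 1.08 and *Ccr10* at 1.203, and the genes just below the limit were *Ccl17* at 0.795 and *Ccr7* at 0.709. Of the members, 12 lie on chromosome 11, which holds a cluster of CC ligands, 7 on chromosome 5 with most CXC ligands, 4 on chromosome 4 and 3 on chromosome 9, where *Cxcr6* and *Ccr1* lie near each other.

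The libraries held 19394572 to 20940660 expected counts, and 3 counts, taken as the smallest amount told from 0, equalled 0.143 to 0.155 CPM. In gastrocnemius *Nr3c1* stood at 112.7 CPM with vehicle and 90.4 CPM with CORT in GRfl/fl mice, against 46.4 and 35.5 CPM in GR-mKO mice, a value that also counts transcripts lacking the deleted exon. Myofibre markers summed to 91660 to 131800 CPM in gastrocnemius, hepatocyte markers to 76170 to 138900 CPM in liver and adipocyte markers to 13220 to 17830 CPM in WAT. The gastrocnemius libraries also held fat transcripts: 6 adipocyte markers summed in GRfl/fl mice to 102.0 CPM with vehicle and 316.2 CPM with CORT, and in GR-mKO mice to 90.4 and 208.5 CPM. The adipocyte marker *Cidec* was listed at 0 in the vehicle-treated GR-mKO muscle library. Hepatocyte markers summed to 6.27 and 9.29 CPM in GRfl/fl muscle and to 78.8 and 263.2 CPM in GR-mKO muscle, with a median share of at most 0.228% of their liver level.

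A gene was compared in a tissue where its mean over the 4 libraries was at least 1 CPM, which held for 28 members in WAT, 20 in gastrocnemius and 14 in liver. It was called higher or lower where the log2 change, computed with 0.5 CPM added to each side, was at least 1 in size and the 95% exact (Clopper-Pearson) interval of the plain ratio of counts left out 1. These intervals cover counting error only. The spread between mice or pools is not known here, so a call is a difference between 2 libraries and carries no p-value.

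To show the DNA beside the values, the 250 bases before the annotated start (RefSeq, GRCm38.p6, read in the direction of the gene) are given for the 6 members with a window that were called higher with CORT in WAT in at least 1 genotype (*Ccl3*, *Ccl6*, *Ccl9*, *Cxcl1*, *Cxcl2*, *Cxcl13*) and the 2 with a window that were called lower in both (*Cxcl9*, *Cxcl12*). Capitals mark letters that match a strict form of the NF-kB consensus on either strand, which is GGG, 2 free letters and TTTCC. The free letters are included, for example GGGAATTTCC in both *Cxcl1* and *Cxcl2*. The table held windows for 24 of the 34 members.
*Ccl3* (chr11:83649379-83649628, minus strand): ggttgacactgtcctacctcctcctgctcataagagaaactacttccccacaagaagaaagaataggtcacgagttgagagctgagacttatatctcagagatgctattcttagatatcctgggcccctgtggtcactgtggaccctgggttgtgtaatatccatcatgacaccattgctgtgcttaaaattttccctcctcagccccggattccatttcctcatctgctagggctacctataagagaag
*Ccl6* (chr11:83593088-83593337, minus strand): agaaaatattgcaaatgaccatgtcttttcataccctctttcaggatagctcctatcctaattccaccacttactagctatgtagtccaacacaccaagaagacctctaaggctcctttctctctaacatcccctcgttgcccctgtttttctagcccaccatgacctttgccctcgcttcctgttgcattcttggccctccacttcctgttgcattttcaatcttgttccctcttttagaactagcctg
*Ccl9* (chr11:83578637-83578886, minus strand): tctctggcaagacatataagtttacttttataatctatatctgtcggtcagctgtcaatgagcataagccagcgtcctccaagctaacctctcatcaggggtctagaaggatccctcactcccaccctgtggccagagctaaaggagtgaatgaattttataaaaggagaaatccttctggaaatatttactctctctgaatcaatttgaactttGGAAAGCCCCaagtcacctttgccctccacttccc
*Cxcl1* (chr5:90890995-90891244, plus strand): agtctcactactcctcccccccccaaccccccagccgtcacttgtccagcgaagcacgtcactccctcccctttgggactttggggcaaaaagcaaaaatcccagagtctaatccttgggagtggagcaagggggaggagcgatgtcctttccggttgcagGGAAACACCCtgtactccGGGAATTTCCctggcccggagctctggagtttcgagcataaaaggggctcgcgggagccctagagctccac
*Cxcl2* (chr5:90903649-90903898, plus strand): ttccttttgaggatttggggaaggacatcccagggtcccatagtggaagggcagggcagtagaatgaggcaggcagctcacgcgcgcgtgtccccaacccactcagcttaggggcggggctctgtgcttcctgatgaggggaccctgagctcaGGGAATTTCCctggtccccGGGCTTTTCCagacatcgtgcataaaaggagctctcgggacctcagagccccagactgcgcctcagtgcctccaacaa
*Cxcl13* (chr5:95956689-95956938, plus strand): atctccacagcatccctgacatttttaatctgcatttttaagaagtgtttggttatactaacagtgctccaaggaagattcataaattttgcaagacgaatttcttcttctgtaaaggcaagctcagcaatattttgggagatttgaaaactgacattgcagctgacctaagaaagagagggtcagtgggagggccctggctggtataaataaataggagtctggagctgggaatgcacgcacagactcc
*Cxcl9* (chr5:92328080-92328329, minus strand): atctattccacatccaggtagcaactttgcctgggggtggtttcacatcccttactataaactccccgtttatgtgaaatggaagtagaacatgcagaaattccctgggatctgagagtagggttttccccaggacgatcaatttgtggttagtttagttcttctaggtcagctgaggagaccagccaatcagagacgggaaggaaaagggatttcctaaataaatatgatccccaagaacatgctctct
*Cxcl12* (chr6:117168285-117168534, plus strand): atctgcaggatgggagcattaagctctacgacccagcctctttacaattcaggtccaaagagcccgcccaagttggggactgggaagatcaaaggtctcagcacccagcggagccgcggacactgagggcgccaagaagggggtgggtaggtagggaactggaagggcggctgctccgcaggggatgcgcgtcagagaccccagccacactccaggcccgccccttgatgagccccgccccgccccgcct
*Cxcl1* and *Cxcl2* each held 2 such matches within 100 bases of the start, and *Ccl9* held 1, while none was found in the windows of *Ccl3*, *Ccl6*, *Cxcl13*, *Cxcl9* or *Cxcl12*. Over windows reaching from 250 bases before to 50 after the start, this strict form occurred in 3 of 27 member windows (11.11%) and in 1.629% of all 32851 windows. The interferon response element occurred in 3 member windows, those of *Ccl19* and *Cxcl10* (GAAAGTGAAA in each) and *Cxcl14* (GAAACAGAAA), and in 3.443% of all windows. The glucocorticoid response element, searched as its palindromic consensus, was in 0 of 27 member windows and in 0.4749% of all. Looser forms of the NF-kB consensus were not searched, so a window without a match here may hold one of those. The matches describe letters in the window, not bound sites.

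In gonadal WAT several myeloid attractants were higher with CORT and several lymphocyte and eosinophil attractants were lower. Summed over the members, the level in WAT was 570.7 CPM in vehicle-treated GRfl/fl mice, 818.8 with CORT, 635.3 in vehicle-treated GR-mKO mice and 865.2 with CORT. Per kilobase of transcript, *Ccl6* led in WAT at a mean of 207.3 CPM per kb, followed by *Ccl11* (57.4), *Ccl9* (48.0), *Ccl2* (23.9) and *Ccl24* (18.4).

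With CORT in GRfl/fl WAT, 15 of 28 members were called, 6 higher and 9 lower, where 15.4% of the 12817 genes compared were called, 6.4% higher and 8.96% lower. In GR-mKO WAT 11 of 28 were called, 6 higher and 5 lower, against 10.7% of genes, 4.17% higher and 6.52% lower. The 2 CORT comparisons share no library. A total of 8 members were called the same way in both, *Ccl2*, *Ccl3*, *Ccl6* and *Ccl7* higher and *Ccl5*, *Ccl11*, *Cxcl9* and *Cxcl12* lower, and none in opposite ways, where 6.05% of all genes were called the same way in both. The change had the same sign in both genotypes for 22 of 28 members (78.6%) and for 73.4% of all genes, a share close to the background. The higher group held attractants of monocytes and other myeloid cells, and the lower group held ligands of lymphocytes and eosinophils together with the stromal chemokine *Cxcl12*. The members' median log2 change was −0.57 in GRfl/fl mice beside −0.06 over all genes, and 0.06 in GR-mKO mice beside −0.13.

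**Figure D1:**
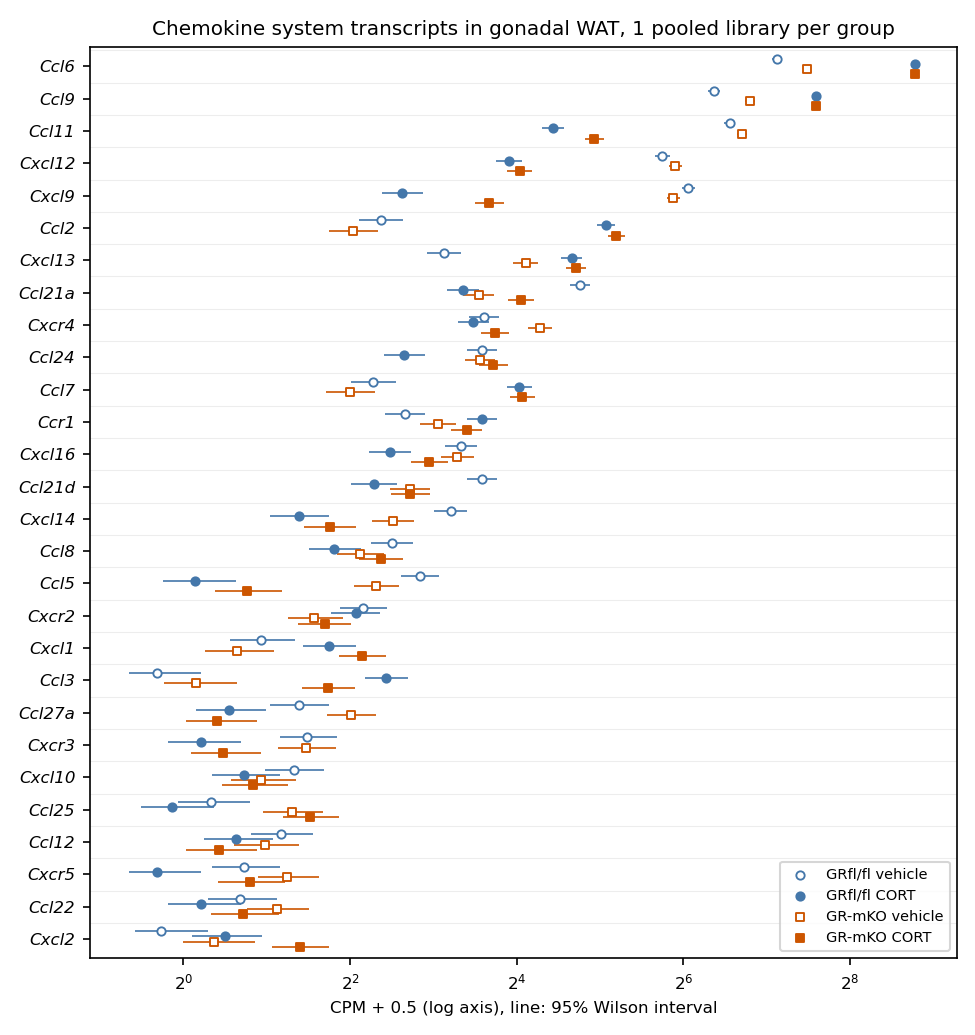
Levels of the 28 members compared in gonadal WAT, in CPM plus 0.5 on a log axis, with 1 point per pooled library (circles GRfl/fl, squares GR-mKO, open vehicle, filled CORT) and lines for 95% Wilson counting intervals. The filled points lie to the right of the open ones for *Ccl6*, *Ccl2*, *Ccl7* and *Ccl3* and to the left for *Ccl11*, *Cxcl12*, *Cxcl9* and *Ccl5*.

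Among the monocyte attractants, *Ccl2*, the main one of mouse tissues, stood at 4.66 CPM in vehicle-treated and 33.2 CPM in CORT-treated GRfl/fl WAT, and at 3.59 and 36.2 CPM in GR-mKO WAT. Both CORT libraries lay far above both vehicle libraries, with ratios of 7.13 (5.73–8.95) in GRfl/fl mice, against 10.1 (7.87–13.0) in GR-mKO mice. *Ccl7*, its neighbour on chromosome 11 with overlapping activity, stood at 4.36, 15.8, 3.49 and 16.3 CPM in vehicle- and CORT-treated GRfl/fl and vehicle- and CORT-treated GR-mKO WAT, the order used for all values below. Its ratios were 3.64 (2.86–4.67) and 4.66 (3.59–6.14). The other 2 of this group, *Ccl8* (3.00 to 5.18 CPM) and *Ccl12* (0.845 to 1.75 CPM), were called in neither genotype.

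*Ccl6* and *Ccl9*, paired mouse chemokines of macrophages that bind Ccr1, ranked first and after *Ccl11* per kilobase in WAT. *Ccl6* stood at 138.5, 437.9, 178.2 and 439.3 CPM, so that the CORT libraries of the 2 genotypes were nearly equal and both vehicle libraries lay far below them. Its ratios to vehicle were 3.16 (3.03–3.30) and 2.46 (2.37–2.56). *Ccl9* followed with 82.2, 191.7, 111.0 and 192.4 CPM. It was called in GRfl/fl mice at a ratio of 2.33 (2.20–2.47), and its ratio of 1.73 (1.64–1.83) in GR-mKO mice missed the size limit. *Ccl3*, a further ligand of Ccr1, was low with vehicle and was called higher with CORT in both genotypes, at 0.301, 4.92, 0.607 and 2.83 CPM, and entered the comparison through its CORT libraries. Their receptor *Ccr1* stood at 5.83, 11.4, 7.80 and 10.04 CPM and was not called.

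*Ccl5*, which T and NK cells release, moved the opposite way to *Ccl3*. It stood at 6.66, 0.601, 4.45 and 1.19 CPM, with ratios of 0.0902 (0.0456–0.163) and 0.268 (0.162–0.423). *Cxcl9*, an interferon-gamma induced attractant of activated T cells through Cxcr3, had the smallest ratio of CORT to vehicle of the members compared in WAT in each genotype. Its levels were 66.3, 5.68, 58.4 and 12.2 CPM, which is 0.0857 (0.0700–0.104) times vehicle in GRfl/fl mice, against 0.209 (0.182–0.2404) times in GR-mKO mice. *Cxcl10*, the other Cxcr3 ligand compared, was low at 1.15 to 2.01 CPM and was called in neither genotype. *Cxcr3* itself stood at 2.31, 0.653, 2.28 and 0.891 CPM, and was called lower in GRfl/fl mice at a ratio of 0.283 (0.140–0.533), a call lost when 1 CPM was added in place of 0.5.

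Markers of leukocytes moved in these WAT libraries as well. The 11 macrophage markers summed to 1212, 2715, 1515 and 2626 CPM, with 5 called higher and 0 lower with CORT in GRfl/fl mice, against 1 and 0 in GR-mKO mice. Among the 5, *Itgam* was listed at 0 in the vehicle-treated GRfl/fl library, as described below. For 9 T and NK cell markers the sums were 16.8, 1.83, 16.7 and 5.50 CPM, and of the 4 that could be compared 4 were called lower in GRfl/fl mice, against 3 in GR-mKO mice, with *Cd4* at 2.004, 0.101, 2.03 and 0.247 CPM. For 6 B cell markers the sums were 24.3, 4.17, 27.9 and 6.04 CPM, with 4 of 4 called lower in each genotype. Of 5 dendritic cell markers, which summed to 39.5, 22.0, 40.2 and 26.9 CPM, 3 were called lower with CORT in each genotype. Of 5 endothelial markers 3 were called lower and 1 higher in GRfl/fl WAT, against 0 and 1 in GR-mKO WAT. In such bulk tissue fewer cells of a type and less RNA per cell cannot be told apart, and the part of these markers in the chemokine changes was not tested.

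**Figure D2:**
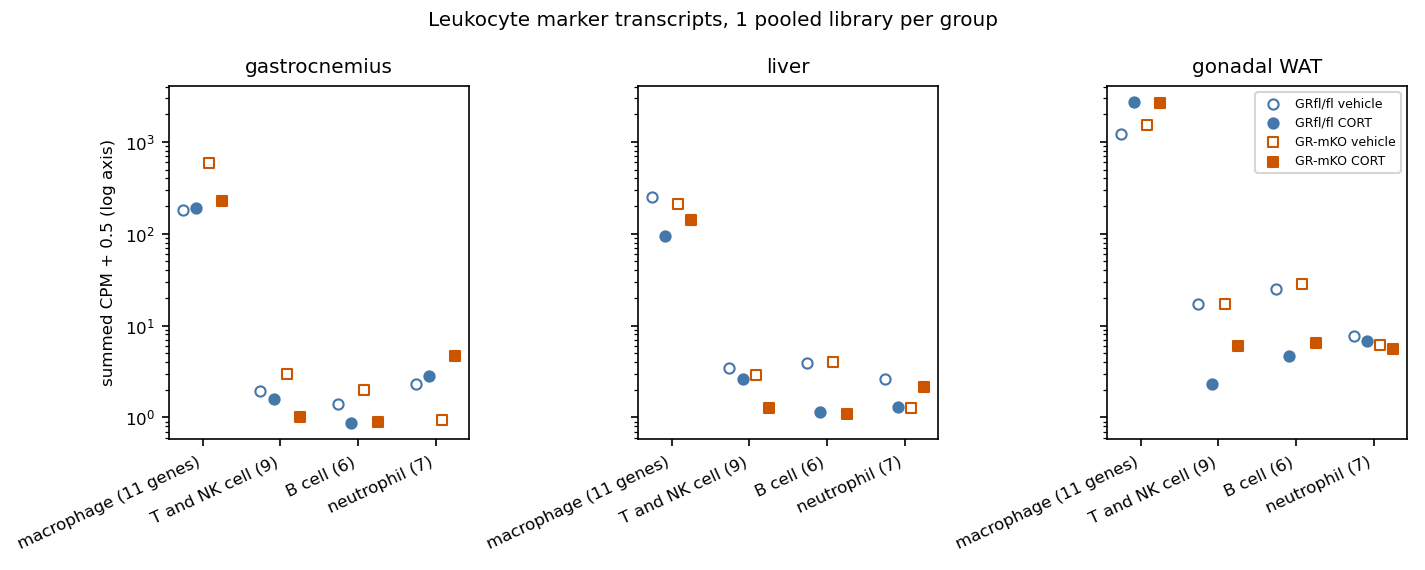
Summed CPM plus 0.5 of markers of 4 leukocyte types on a log axis, in gastrocnemius, liver and gonadal WAT, with 1 point per pooled library (circles GRfl/fl, squares GR-mKO, open vehicle, filled CORT). In WAT the filled points lie above the open ones for macrophages and below them for T, NK and B cells, and in gastrocnemius the vehicle-treated GR-mKO library has the highest macrophage sum, 582.5 CPM.

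*Cxcl13*, which draws B cells through Cxcr5 and is also made by macrophages, stood at 8.22, 24.8, 16.8 and 25.7 CPM. Here too the CORT libraries of the 2 genotypes were close, while the vehicle libraries differed, so that CORT gave a called ratio of 3.01 (2.52–3.62) in GRfl/fl mice and an uncalled 1.53 (1.33–1.76) in GR-mKO mice. Its receptor *Cxcr5* stood at 1.15, 0.301, 1.87 and 1.24 CPM and was called lower with CORT in GRfl/fl mice, on 6 counts against 23, and this call was lost with 1 CPM added. The neutrophil attractants *Cxcl1* (1.40, 2.86, 1.06 and 3.92 CPM) and *Cxcl2* (0.331, 0.918, 0.786 and 2.13 CPM) were called higher with CORT in GR-mKO mice, at ratios of 3.68 (2.25–6.27) and 2.71 (1.45–4.998). *Cxcl2*, at a mean of 1.04 CPM, entered the comparison through its CORT-treated GR-mKO library, which favoured a call. It lost this call with 1 CPM added. In GRfl/fl mice their ratios of 2.04 (1.28–3.33) and 2.77 (1.03–7.30) fell short of the limit, and their receptor *Cxcr2*, at 2.47 to 3.95 CPM, was not called.

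*Cxcl12*, made by stromal cells and the ligand of Cxcr4, was among the decreases shared by both genotypes. It stood at 53.3, 14.5, 59.4 and 15.9 CPM, and the ratios of 0.273 (0.238–0.311) and 0.268 (0.236–0.303) overlapped almost fully. Its receptor *Cxcr4* was not called, at 11.7, 10.7, 18.9 and 12.8 CPM. *Ccl11* (eotaxin), which attracts eosinophils through Ccr3, was also lower with CORT in both genotypes, at 93.5, 21.1, 103.9 and 30.0 CPM, with ratios of 0.226 (0.202–0.251) and 0.289 (0.263–0.316). *Ccl24*, a further ligand of Ccr3, was not called with CORT, at 11.4, 5.77, 11.3 and 12.7 CPM. *Ccr3* was below 1 CPM in all libraries.

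Among lymphoid and epithelial chemokines in WAT, *Ccl21a*, a guide of T cells and dendritic cells along lymphatic vessels, stood at 26.6, 9.77, 11.2 and 16.1 CPM. It was called lower with CORT in GRfl/fl mice (0.368, 0.310–0.433) and not in GR-mKO mice, where the ratio was 1.44 (1.21–1.72). The vehicle-treated GRfl/fl library was the high one, and against it the vehicle-treated GR-mKO library was called lower at 0.420 (0.357–0.492). *Ccl21d* (Gm21541 in GENCODE) followed a like course at 11.5, 4.38, 6.06 and 6.08 CPM, but its transcript has the same 870 bases as *Ccl21a* apart from 6, so reads may have been divided between them. *Ccl27a*, a skin homing chemokine that also exists in intracellular forms, was called lower in GR-mKO mice at 2.11, 0.959, 3.53 and 0.818 CPM, and *Cxcl14*, an epithelial and stromal chemokine, in GRfl/fl mice at 8.74, 2.11, 5.23 and 2.87 CPM.

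Fewer members were called between the genotypes in WAT than with CORT, as held for all genes compared. With vehicle 1 of 28 members, *Ccl21a*, was called lower and 0 higher in GR-mKO mice, where 3.5% of genes were called, 1.69% higher and 1.81% lower. With CORT 4 of 28 were called, all higher in GR-mKO mice, where 4.12% of genes were called, 2.13% higher and 1.99% lower. These were *Ccl24* at 2.20 times (1.76–2.76), *Ccl25* at 5.78 times (2.77–14.5), *Cxcl9* at 2.15 times (1.72–2.72) and *Cxcr5* at 4.12 times (1.65–12.2). *Cxcl9* and *Cxcr5* lost these calls with 1 CPM added. Among genes with a mean below 20 CPM, 6.14% were called between the genotypes with vehicle and 7.26% with CORT, beside 1 and 3 of 23 members. The genotype comparisons share libraries with the CORT comparisons above and are not independent of them.

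In gastrocnemius the members summed to 283.7, 191.7, 449.4 and 287.6 CPM, with the highest sum in the vehicle-treated GR-mKO library. The same library had the lowest sum of myofibre markers, the 4 sums being 131800, 128400, 91660 and 116100 CPM. Per kilobase *Cxcl14* (mean of 54.8 CPM per kb) and *Ccl11* (54.5) led, followed by *Ccl6* (15.8), *Ccl21a* (13.6) and *Ccl21d* (9.10). With vehicle, 9 of 20 members were called between the genotypes, 8 higher and 1 lower in GR-mKO mice, where 9.7% of the 12190 genes compared were called, 5.73% higher and 3.98% lower. Among genes with a mean below 20 CPM, 12.7% were called, and 7 of 16 members. The median log2 change of the members was 0.86, beside 0.08 over all genes.

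**Figure D3:**
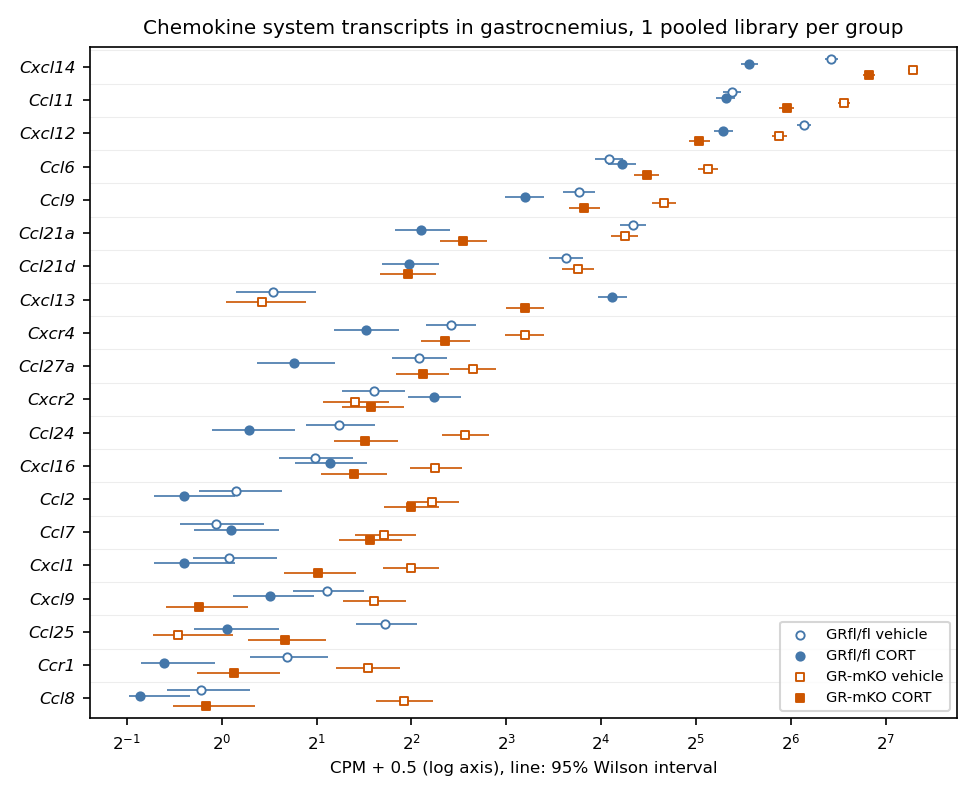
Levels of the 20 members compared in gastrocnemius, in CPM plus 0.5 on a log axis, with 1 point per pooled library (circles GRfl/fl, squares GR-mKO, open vehicle, filled CORT) and lines for 95% Wilson counting intervals. The open square, vehicle-treated GR-mKO muscle, is the rightmost point for *Cxcl14*, *Ccl11*, *Ccl6*, *Ccl2*, *Ccl7* and *Ccl8*, and the filled points of *Cxcl13* lie to the right of its open ones.

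The monocyte attractants *Ccl2*, *Ccl7* and *Ccl8* and the neutrophil attractant *Cxcl1* were called higher in vehicle-treated GR-mKO muscle. All 4 were below 1 CPM in both GRfl/fl libraries and entered the comparison through the GR-mKO libraries, so the limit on the mean favoured a call. *Ccl2* stood at 0.608, 0.259, 4.16 and 3.48 CPM, so that both GR-mKO libraries lay above both GRfl/fl libraries, at 6.85 times (3.76–13.9) with vehicle and 13.5 times (5.53–42.9) with CORT. *Ccl7* kept the same order at 0.456, 0.570, 2.78 and 2.45 CPM and was likewise called under both treatments. *Ccl8* was higher under vehicle at 9.19 times (4.28–24.1), at 0.357, 0.0521, 3.28 and 0.391 CPM, and its CORT-treated GR-mKO library was close to the vehicle-treated GRfl/fl library. *Cxcl1* stood at 0.556, 0.259, 3.48 and 1.52 CPM and was called higher in GR-mKO mice under vehicle (6.25 times, 3.31–13.2) and under CORT (5.89 times, 2.28–19.5).

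The eosinophil attractants *Ccl11* (41.2, 39.3, 93.9 and 61.7 CPM) and *Ccl24* (1.86, 0.724, 5.43 and 2.35 CPM) were called higher in vehicle-treated GR-mKO muscle, at 2.28 times (2.10–2.48) and 2.92 times (1.99–4.35). *Ccl6*, at 16.4, 18.1, 34.4 and 21.8 CPM, was called at 2.09 times (1.83–2.39), just past the limit, and lost the call under TMM factors (log2 change 0.96) and median-of-ratios factors (0.98). The T cell chemokine *Cxcl16*, at 1.47, 1.71, 4.26 and 2.13 CPM, completed the 8 that were higher. Macrophage markers moved with them: their sum was 182.5, 190.4, 582.5 and 227.3 CPM, and 9 of 11 were called higher in vehicle-treated GR-mKO muscle, among them *Csf1r* at 13.2, 19.1, 49.7 and 11.4 CPM. T, NK and B cell marker sums stayed at or below 2.50 CPM in every gastrocnemius library. Fibroblast markers summed to 1484, 504.5, 2216 and 722.5 CPM, and the part of any of these in the chemokine levels was not tested.

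Under CORT 6 of 20 members differed between the genotypes, all higher in GR-mKO muscle, where 11.5% of genes were called, 5.51% higher and 6.0% lower. These were *Ccl2*, *Ccl7*, *Ccl24* and *Cxcl1*, called under vehicle too, together with *Ccl27a* and *Cxcl14*. *Cxcl14* stood at 85.4, 46.8, 155.4 and 112.7 CPM, giving ratios of GR-mKO to GRfl/fl of 2.41 (2.23–2.61) with CORT and an uncalled 1.82 (1.72–1.93) with vehicle. *Ccl27a*, at 3.73, 1.201, 5.77 and 3.85 CPM, was 3.21 times (2.01–5.39) higher with CORT. *Ccl24* lost its call with 1 CPM added.

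With CORT most members in muscle were at lower levels and *Cxcl13* was at a higher one. In GRfl/fl muscle 6 of 20 were called, 1 higher and 5 lower, where 10.1% of genes were called, 4.15% higher and 5.91% lower. In GR-mKO muscle 8 of 20 were called, 2 higher and 6 lower, where 8.22% of genes were called, 2.25% higher and 5.97% lower. Medians were −0.62 and −0.84 on the log2 scale, beside −0.09 over all genes in each genotype. Fibroblast markers were called lower with CORT as well, 3 of 6 in GRfl/fl and 5 of 6 in GR-mKO muscle, as were 2 of 3 dendritic cell markers compared in each, and their part in the chemokine changes was not tested. Of the 20 members, 16 changed in the same direction in both genotypes, as did 58.5% of all genes compared.

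*Cxcl13* stood at 0.959, 16.8, 0.846 and 8.64 CPM in gastrocnemius. Both CORT libraries were far above both vehicle libraries, at 17.6 times (11.1–29.6) in GRfl/fl mice, against 10.2 times (6.20–17.9) in GR-mKO mice, the largest ratios of CORT to vehicle of any member compared in muscle. Of the 6 adipocyte markers, 5 were called higher with CORT in muscle of each genotype, and the other, *Cfd*, was called lower in GRfl/fl mice (53.4 to 22.6 CPM). Among the 5 in GR-mKO muscle, *Cidec* was listed at 0 with vehicle, against 49.3 CPM with CORT. The WAT level of *Cxcl13* scaled by the median adipocyte marker share amounted to 0.610 of the 16.8 CPM and 0.425 of the 8.64 CPM. The same reckoning gave 10.8 of 18.1 CPM for *Ccl6* and 4.72 of 8.68 CPM for *Ccl9* in CORT-treated GRfl/fl muscle. For some members of that library it exceeded the measured level, such as *Ccl2* (0.818 against 0.259 CPM) and *Ccr1* (0.282 against 0.154 CPM). The share was then subtracted from every gene with the same transcript in both tissues (which leaves out *Ccl27a*), an alternative chosen after the markers had been seen. With it 11 members were called in GRfl/fl muscle, 1 higher and 10 lower, with *Ccl6* at a log2 change of −1.06 in place of 0.13. *Ccl2* and *Ccr1*, both at 0 with CORT after the subtraction, were among the 10 lower.

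*Ccl21a* (19.7, 3.801, 18.5 and 5.35 CPM) and its near copy *Ccl21d* (11.9, 3.44, 13.0 and 3.39 CPM) were lower with CORT in both genotypes of muscle. The ratios of *Ccl21a* were 0.193 (0.149–0.249) and 0.289 (0.232–0.360), and within each treatment the genotypes were close. *Ccr1* was the third member called lower in both, at 1.11, 0.154, 2.40 and 0.590 CPM, on 3 counts in the CORT-treated GRfl/fl library, a call lost there with 1 CPM added. In GR-mKO mice alone *Ccl8* at 0.119 times (0.0496–0.249), *Ccl24* and the interferon-induced *Cxcl9* (1.66, 0.926, 2.55 and 0.344 CPM) were also called lower, and 10 of 11 macrophage markers were called lower there. *Ccl24* at 0.432 times (0.303–0.615) lost its call under TMM factors, median-of-ratios factors and 1 CPM added. *Ccr1*, *Ccl8* and *Cxcl9*, at means of 1.06, 1.02 and 1.37 CPM, reached the limit on the mean through their vehicle libraries, which favoured a lower call. *Ccl25*, called lower in GRfl/fl mice and described below, reached it at a mean of 1.17 CPM through the vehicle-treated GRfl/fl library. In GRfl/fl mice *Ccl27a* was called lower at 0.322 times (0.190–0.513). Whether these changes differ between the genotypes cannot be tested with 1 library each.

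In liver the members summed to 211.4, 150.5, 240.2 and 179.0 CPM, lower with CORT than with vehicle in both genotypes. *Cxcl12* led with a mean of 37.5 CPM per kb, followed by *Ccl9* (15.6), *Ccl27a* (3.67), *Ccl6* (3.46) and *Cxcl1* (2.26). *Cxcl12* stood at 113.6, 94.1, 154.5 and 107.9 CPM and *Ccl9* at 54.5, 37.4, 50.2 and 45.6 CPM, and neither was called in any comparison. The liver entry of *Cxcl12* is another transcript than in muscle and WAT, so its level was not set against theirs.

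With CORT 6 of 14 members were called in GRfl/fl liver, all lower, where 13.8% of the 10943 genes compared were called, 6.87% higher and 6.89% lower. In GR-mKO liver 4 of 14 were called, 1 higher and 3 lower, where 7.72% of genes were called, 3.95% higher and 3.77% lower. *Cxcl9* and *Cxcl10* were lower in both genotypes. *Cxcl10*, *Ccl24* and *Ccl25*, at means of 1.11, 1.18 and 1.19 CPM, reached the limit on the mean through the vehicle-treated GRfl/fl library. This favoured a lower call in GRfl/fl liver. The medians of the members were −0.78 and −0.47 on the log2 scale, beside 0.01 and 0.06 over all genes.

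**Figure D4:**
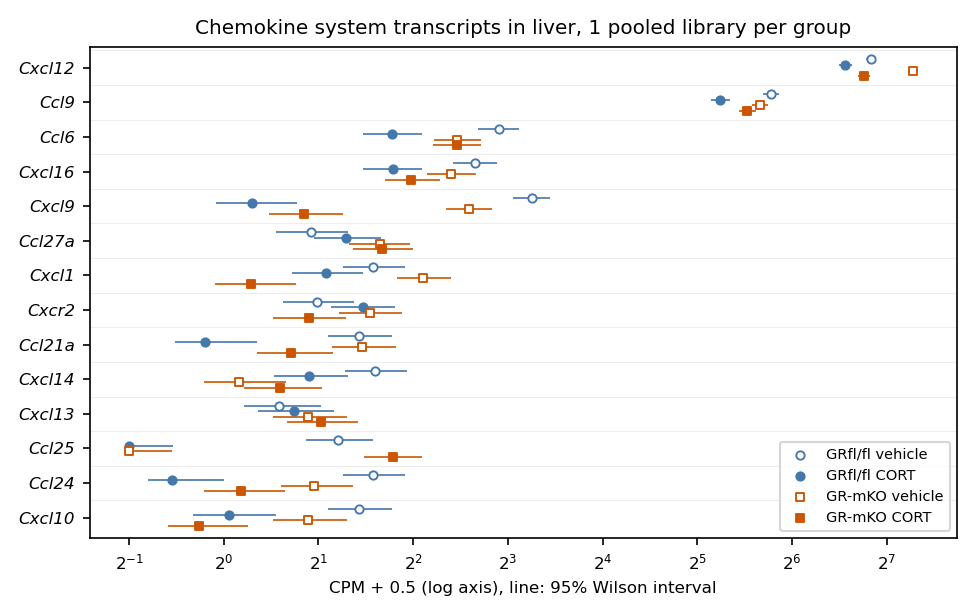
Levels of the 14 members compared in liver, in CPM plus 0.5 on a log axis, with 1 point per pooled library (circles GRfl/fl, squares GR-mKO, open vehicle, filled CORT) and lines for 95% Wilson counting intervals. For *Cxcl9* and *Cxcl10* both filled points lie to the left of both open ones, and for *Ccl25* the points at 0.5 are libraries listed at 0.

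*Cxcl9* was lower with CORT in liver as in WAT, at 9.04, 0.732, 5.53 and 1.297 CPM and ratios of 0.0810 (0.0446–0.137) and 0.235 (0.149–0.362). *Cxcl10*, a further ligand of Cxcr3, stood at 2.20, 0.538, 1.35 and 0.338 CPM and lost its GR-mKO call with 1 CPM added. In GRfl/fl mice *Ccl6* (6.97, 2.93, 5.03 and 5.01 CPM), *Ccl21a* (2.20, 0.371, 2.25 and 1.14 CPM) and *Ccl24* (2.49, 0.186, 1.43 and 0.631 CPM) were also called lower. In GR-mKO mice *Cxcl1* was, at 2.48, 1.61, 3.81 and 0.724 CPM and a ratio of 0.190 (0.101–0.331). The macrophage marker sum in liver was 253.1, 94.5, 209.3 and 140.2 CPM, with 7 of 10 called lower with CORT in GRfl/fl mice, against 1 of 10 in GR-mKO mice, and its part in these changes was not tested.

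Between genotypes in liver, 2 of 14 members were called lower and 0 higher in GR-mKO mice with vehicle, where 4.21% of genes were called, 2.17% higher and 2.04% lower. With CORT 1 of 14 was called, higher in GR-mKO mice, where 6.65% of genes were called, 3.52% higher and 3.13% lower. *Cxcl14* was lower with vehicle at 0.246 times (0.124–0.462), on 13 counts against 53. The other calls were of *Ccl25*, a thymic and gut chemokine, which had 38 counts in vehicle-treated and 0 in CORT-treated GRfl/fl liver, and 0 and 61 counts in GR-mKO liver. Its values in muscle, 2.81, 0.542, 0.229 and 1.09 CPM, crossed over in the same way, with called ratios of CORT to vehicle of 0.193 (0.0949–0.388) in GRfl/fl muscle and 4.75 (1.60–14.7) in GR-mKO muscle, the latter lost with 1 CPM added, and of 0.0815 (0.0276–0.218) for GR-mKO to GRfl/fl mice with vehicle. Each entry bears 1 transcript identifier, and other entries were also listed at 0 in single libraries of a tissue where the rest were well above 0, such as *Itgam*, a myeloid integrin among the macrophage markers, at 0, 64.7, 22.5 and 42.7 CPM in WAT. Whether its reads were assigned to another transcript was not tested. No ratio of counts is given for *Ccl25* in liver.

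**Figure D5:**
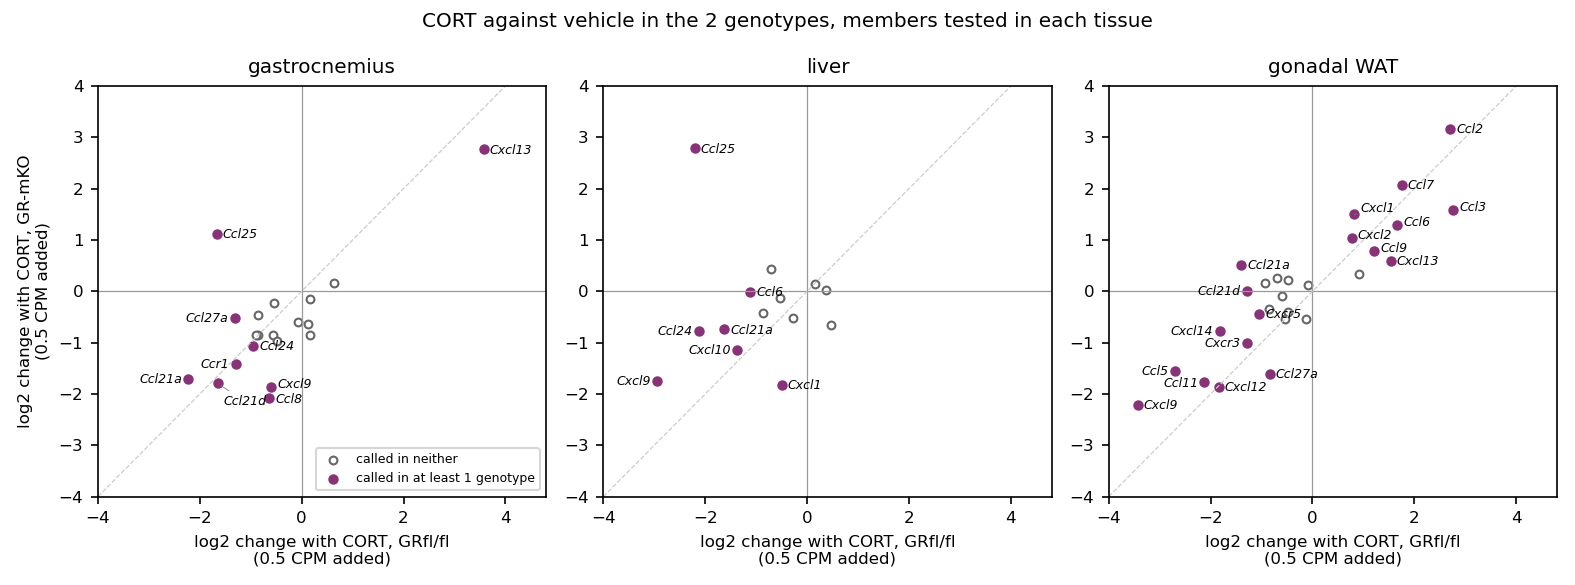
Log2 change with CORT (0.5 CPM added) in GRfl/fl mice on the horizontal axis and in GR-mKO mice on the vertical axis, for the members compared in each tissue; filled points were called in at least 1 genotype and the dashed line marks equal change. *Ccl2*, *Ccl7*, *Ccl3* and *Ccl6* lie at the upper right in gonadal WAT, *Cxcl13* at the upper right in gastrocnemius, and *Ccl25* at the upper left in gastrocnemius and liver.

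Side by side, a few members went the same way with CORT in more than 1 tissue. *Cxcl9* was lower in all 6 CORT comparisons by value and was called in 5 of them, all but GRfl/fl muscle (0.558 times, 0.296–1.02). *Cxcl12*, counted in liver on another transcript, was below vehicle in all 6, from 0.268 times in GR-mKO WAT to 0.829 times in GRfl/fl liver, and was called in WAT in both genotypes. *Ccl2* was called higher with CORT in WAT, was not in muscle (0.426 times, 0.118–1.299, and 0.836 times, 0.599–1.16), and was too low in liver to compare. *Ccl11* was called lower with CORT in WAT while its muscle ratios were 0.954 (0.863–1.05) and 0.657 (0.611–0.706).

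Chemokine genes outside the symbol pattern were followed in a list of 13. The counts of this list and of the next lists stand against the shares of all genes called in the same comparison and direction, which with CORT in WAT were 6.4% (higher) and 8.96% (lower) for GRfl/fl, against 4.17% and 6.52% for GR-mKO mice. With CORT 0 of 11 compared in WAT were higher and 2 lower in GRfl/fl mice, against 1 higher and 1 lower in GR-mKO mice. *Cmklr1*, the receptor of chemerin on macrophages and adipocytes, was lower in both at 228.7, 98.7, 280.8 and 114.6 CPM. In gastrocnemius *Ackr2*, a decoy receptor that removes CC chemokines, was higher with CORT in both genotypes at 0.524, 2.88, 1.22 and 4.53 CPM. *Cx3cr1*, the fractalkine receptor of monocytes and macrophages, was listed at 0 in both GRfl/fl libraries and stood at 3.41 and 0.591 CPM in GR-mKO muscle. *Xcr1*, found on cross-presenting dendritic cells, was lower in CORT-treated GR-mKO muscle, at 1.91, 2.50, 2.09 and 0.685 CPM.

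Among 22 genes of leukocyte signalling below these receptors, 15 could be compared in gastrocnemius, where 5 were higher and 0 lower in vehicle-treated GR-mKO mice and 7 were lower and 0 higher with CORT in GR-mKO mice, where 5.73% of all genes were higher in the former and 5.97% lower in the latter comparison. *Itgb2*, the common chain of the leukocyte integrins, stood there at 1.51, 1.47, 8.09 and 5.17 CPM, and *Selplg*, the selectin ligand of leukocytes, at 4.13, 1.39, 10.3 and 2.09 CPM. *Dock2* (1.96, 1.01, 6.61 and 1.67 CPM) and *Rac2* (2.62, 2.33, 7.58 and 2.81 CPM), which drive actin remodelling in migrating leukocytes, were also highest in vehicle-treated GR-mKO muscle. In liver 8 of 14 were lower and 0 higher with CORT in GRfl/fl mice, against 3 lower and 0 higher in GR-mKO mice, beside 6.89% and 3.77% of all genes lower, with *Rac2* at 5.20, 1.90, 5.74 and 1.89 CPM. In WAT 5 of 22 were higher and 3 lower in GRfl/fl mice, against 2 higher and 1 lower in GR-mKO mice. *Itgb2* rose there, at 25.6, 83.9, 25.7 and 79.1 CPM, as did *Rgs1*, which dampens chemokine receptor signals, at 1.36, 6.33, 2.05 and 8.07 CPM.

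Of 17 genes that induce or relay chemokine transcription, 11 were compared in WAT, with 0 higher and 3 lower with CORT in GRfl/fl mice, against 0 and 2 in GR-mKO mice. *Nfkbia*, the inhibitor of NF-kB and itself one of its targets, stood at 131.8, 38.6, 130.1 and 51.9 CPM. In liver 4 of 9 were lower and 0 higher in GRfl/fl mice, against 2 and 0 in GR-mKO mice. *Irf7*, a transcription factor of the interferon response, fell there in both genotypes, at 17.6, 2.72, 14.3 and 3.39 CPM, as did the cytokine gene *Il18*, at 6.62, 2.87, 6.62 and 2.92 CPM. In gastrocnemius the counts with CORT were 1 higher and 2 lower of 10 in GRfl/fl mice, against 1 and 1 in GR-mKO mice, where 4.15% of all genes were higher and 5.91% lower in the former and 2.25% and 5.97% in the latter. *Ifng* and *Il17a* were at or below 3 counts in all 12 libraries.

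The remaining members were low. *Ccl19*, *Ccl28*, *Ccl4*, *Ccr10*, *Cxcl11* and *Cxcr6* had means below 1 CPM in every tissue and were compared in none, and *Ccl12*, *Ccl22*, *Ccl5*, *Ccl3*, *Cxcl2*, *Cxcr3* and *Cxcr5* were compared in WAT only. *Cxcr6*, the receptor of *Cxcl16*, stood at 0.952, 0.251, 1.22 and 0.149 CPM in WAT, and *Ccl4* at 0.351, 1.55, 0.0506 and 0.695 CPM. *Ccl22*, a chemokine of dendritic cells and macrophages, was between 0.653 and 1.67 CPM in WAT and was not called.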

How the data were processed

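RNA of 3 mice per group was pooled into 1 library and read as paired ends. The authors quantified the reads with Salmon 1.2.1 on GENCODE M20 protein-coding transcripts and summarised them with tximport as length-scaled values, so the deposited values are expected counts, and where a gene name recurred the entry with the largest total was kept. Each entry bears 1 transcript identifier, and whether transcripts were summed to genes was not settled. Counts scaled in this way are estimates, and intervals computed from them cover counting error only.

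From these, CPM were computed from library totals, with rounded counts for intervals (Wilson for levels, exact Clopper-Pearson for ratios, 95%) and a floor of 3 counts. Genes with a mean of at least 1 CPM in a tissue were compared on log2(CPM + 0.5) and called at a change of 1 with an interval that left out 1. With 1 library per group no replicate test of a comparison was run, and an additive fit of genotype and treatment, which would treat their interaction as error, was not run. The calling script was tested on simulated data. Named genes were members called in at least 1 comparison of a tissue, the top 5 per tissue by CPM per kb, and from other lists genes called in at least 2 comparisons of a tissue, at most 4 per list and tissue. *Cd4*, *Csf1r*, *Itgam*, *Ifng*, *Il17a* and the uncalled members with values were chosen after their values were seen. Members and lists were chosen with earlier results of these data known, and 2 genes matching the pattern are not reported here. Alternatives were TMM and median-of-ratios scaling (edgeR 4.0.16, R 4.3.3), 1 CPM added, no filter, and subtraction of an adipose share from muscle. Other steps used Python 3.11.15 with numpy 2.4.6, pandas 2.3.3 and scipy 1.17.1.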

Additional observations from a re-analysis of the deposited data

Results flagged for a closer look

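In 4 cases a member was called in opposite directions with CORT in 2 genotypes or 2 tissues. With 1 library per group the differences were not tested. *Ccl25* in gastrocnemius changed with CORT by −1.67 on the log2 scale in GRfl/fl mice, against 1.12 in GR-mKO mice. In liver *Ccl25* changed by −2.21 in GRfl/fl mice, against 2.78 in GR-mKO mice, where the lower library of each pair was listed at 0, so these values depend on the 0.5 CPM added. *Ccl6* changed with CORT in GRfl/fl mice by −1.12 in liver and 1.66 in gonadal WAT. *Cxcl1* changed with CORT in GR-mKO mice by −1.82 in liver and 1.5 in gonadal WAT.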

How the results depend on the processing

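Over the changes of members called in the main comparisons, 307 values under the alternatives kept their direction and side of the limit or stayed within 1.5 times. A further 14 kept their direction but fell below the limit, and 0 reversed. Members not called in the main comparisons are not among these values. Of the 14, 10 arose with 1 CPM added, 2 under TMM and 2 under median-of-ratios factors, and each is given beside its result. Counts of members called, taken apart from these values, moved by over 1.5 times in 4 cases. Without the filter on low values 2 members were called between genotypes in CORT-treated liver and 2 in vehicle-treated WAT, against 1 each. With 1 CPM added 2 were called between genotypes in CORT-treated WAT, against 4. With the adipose share subtracted, an alternative chosen after seeing the data, 11 were called with CORT in GRfl/fl muscle, against 6, and *Ccl6*, not called before, turned from 0.13 to −1.06 on the log2 scale. Rescaling shifted the median of all genes by over 0.1 on the log2 scale with CORT in muscle (0.105 in GRfl/fl mice under median-of-ratios factors, 0.145 and 0.133 in GR-mKO mice under TMM and median-of-ratios) and in GR-mKO WAT (0.121 and 0.125). No paired analysis was possible because each group had 1 library, and none could be left out. Pools of 3 mice without replicates limit every statement to these libraries, and members at a few counts are limited by depth.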
